A study of Mus musculus with 10 samples.

Results

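The G2, mitosis and cytokinesis genes are 57 genes whose products carry a cell from G2 through chromosome segregation to the final split of the daughter cells. They were chosen by name, as the probe sets whose platform annotation gave exactly 1 of these symbols. Of the 57, 56 were found on the array and 54 passed a filter on low values. The whole table held 18193 genes with a symbol of their own, of which 12855 passed the same filter and were tested. Ccnb1, a B-type cyclin, was not matched to a probe set and was not analysed here. Ndc80 and Mybl2 were on the array but lay under the filter, and their values are given without it.

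Whole livers came from male mice of the inbred strain C57BL/6 NHsd. Their RNA was measured on Affymetrix mouse genome arrays, on which a transcript is read by 1 or more probe sets, each a group of short probes toward its 3' end. All animals received an injection into the tail vein, and livers were taken on day 5. The first group (PBS, 2 arrays) received buffer alone. The second (control siRNA, 4 arrays) received lipid nanoparticles loaded with a control small interfering RNA (siRNA), at 1.5 mg/kg. The sample titles call that RNA scrambled and the design text calls it a luciferase siRNA. The third (Rab5 siRNA, 4 arrays) received the same dose of nanoparticles with siRNAs against Rab5all, the small GTPases that organise early endosomes. The labels number the livers but do not say that they are separate mice, and the p-values cover no more than the spread among these 10 samples, which may be technical. Values are deposited log2 expression values, and a change is a difference of group means on that scale, with n = 4 arrays per siRNA group and n = 2 for PBS. A gene is said to have risen or fallen where limma's p, adjusted over all genes tested, was under 0.05.

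Mitosis begins when cyclin-bound Cdk1 is switched on by Cdc25 phosphatases, after which condensin packs the chromosomes and the kinetochores attach them to the spindle. The spindle checkpoint then holds back the anaphase-promoting complex until every chromosome is attached, and destruction of securin and of the cyclins lets the sister chromatids part and the cell divide. Most of these genes are transcribed late in the cell cycle and are repressed in resting cells. Adult hepatocytes are mostly quiescent and polyploid, and they re-enter the cycle after injury or loss of tissue.

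Promoters of such genes often carry a cell cycle gene homology region (CHR) near the start of transcription, with CCAAT boxes a short way upstream. RefSeq promoters (GRCm38.p6, 250 bases before to 50 after a start) were found for 47 of the 57 genes, 50 promoters in all. The 250 bases before the start are shown 5′ to 3′ for the 4 members with the largest rise whose promoter holds a CHR, and for Pttg1, which did not pass the test. Capitals mark TTTGAA and TTCGAA, called a CHR here wherever they lie, and CCAAT. Either strand is marked, so TTCAAA and ATTGG are the same motifs read from the other strand. Ube2c lies at chr2:164769679-164769928, plus strand, Ect2 at chr3:27153879-27154128, minus strand, Ccnb2 at chr9:70421555-70421804, minus strand, Mki67 at chr7:135716380-135716629, minus strand and Pttg1 at chr11:43425982-43426231, minus strand.
Ube2c: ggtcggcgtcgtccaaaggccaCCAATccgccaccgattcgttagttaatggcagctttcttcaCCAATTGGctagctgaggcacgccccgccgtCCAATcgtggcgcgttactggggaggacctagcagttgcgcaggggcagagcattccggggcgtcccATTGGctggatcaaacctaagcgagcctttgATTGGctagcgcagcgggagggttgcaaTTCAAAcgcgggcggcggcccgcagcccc
Ect2: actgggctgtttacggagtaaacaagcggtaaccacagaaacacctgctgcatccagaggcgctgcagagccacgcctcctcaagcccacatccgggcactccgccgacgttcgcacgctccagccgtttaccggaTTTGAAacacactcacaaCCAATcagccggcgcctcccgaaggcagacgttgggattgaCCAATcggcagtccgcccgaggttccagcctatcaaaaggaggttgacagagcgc
Ccnb2: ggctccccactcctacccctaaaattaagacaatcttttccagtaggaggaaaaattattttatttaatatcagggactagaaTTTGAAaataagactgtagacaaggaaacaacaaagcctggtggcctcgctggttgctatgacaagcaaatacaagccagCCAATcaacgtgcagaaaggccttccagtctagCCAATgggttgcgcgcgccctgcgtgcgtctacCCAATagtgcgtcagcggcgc
Mki67: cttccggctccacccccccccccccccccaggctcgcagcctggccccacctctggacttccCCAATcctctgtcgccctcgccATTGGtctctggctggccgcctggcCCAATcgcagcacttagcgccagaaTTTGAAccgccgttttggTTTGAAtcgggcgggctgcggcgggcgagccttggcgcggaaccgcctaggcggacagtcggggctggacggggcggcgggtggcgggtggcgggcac
Pttg1: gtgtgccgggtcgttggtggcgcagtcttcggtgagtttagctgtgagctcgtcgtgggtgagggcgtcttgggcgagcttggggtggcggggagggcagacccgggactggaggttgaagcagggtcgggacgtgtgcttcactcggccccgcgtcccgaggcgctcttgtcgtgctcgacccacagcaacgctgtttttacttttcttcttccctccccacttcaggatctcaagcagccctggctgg

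The stretch before Ube2c holds 6 CCAAT matches and 1 CHR, and 2 of the 6 overlap on opposite strands in CCAATTGG. That of Ccnb2 holds 3 CCAAT boxes and 1 CHR, and that of Mki67 3 CCAAT boxes and 2 CHR. Ect2 has 2 CCAAT boxes and 1 CHR there, and both Ect2 and Ccnb2 have a further CHR after the start. The marked CHR begins at -114 from the start in Ect2 and at -167 in Ccnb2, farther from it than their CCAAT boxes. The further ones begin at 39 and 4, outside the stretch shown. In Mki67 the CHR matches begin at -116 and -98. The stretch before Pttg1 holds neither motif. Over the whole window of 300 bases, 38 of the 50 promoters (76.0%) held a CHR, against 19.2% of the 32851 promoters of the table and 14.0% of the promoters of genes tested. Promoters of the other genes that rose with Rab5 siRNA held one in 15.2%. A CCAAT box lay in 74.0% of the member promoters, against 37.4% of all, and at least 2 in 25 of the 50, against 11.7% of all. A CHR together with at least 2 CCAAT boxes was found in 46.0% and 2.31%. The E2F motif (TTCCCGC or TTGGCGC, either strand) was found in 20.0% of the member promoters and 6.81% of all, and in 10.9% of the promoters of genes tested and 13.7% of those of the other genes that rose. Of the 52 CHR matches, 36 (69.2%) lay within 50 bases of the start, a share of 25.2% over all promoters, and of the 86 CCAAT matches, 54 (62.8%) lay in the 100 bases before it, against 43.6%. These 2 windows were chosen after the positions were seen. A match is a description of the letters, and the promoter of Birc5, the member with the largest rise, held none of the 3 motifs. Nor did those of Nusap1, Nuf2, Mad2l1 and Melk, which rose as well. Among members that did not pass the test or lay under the filter, Kif2c and Ndc80 held a CHR, and Pttg1 and Mybl2 held none of the 3 motifs.

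With Rab5 siRNA the mitotic genes rose nearly as a whole: 48 of the 54 were higher than with control siRNA and 0 were lower. Over all 12855 genes tested, 13.8% were higher and 9.51% lower. The median change of the 54 was 1.71, with a range of -0.20 to 2.72, and that of all genes was 0.00. At least 2-fold rises were seen in 42 of the 54 (77.8%), against 2.53% of all genes, and these 42 made up 12.9% of the 325 genes with such a rise. Of the 100 genes with the smallest p in this comparison 13 were members, and of the first 500, 39. All 4 Rab5 arrays lay above all 4 control arrays for 47 of the 54, against 13.8% of all genes. For 8 genes (Ttk, Espl1, Melk, Aurkb, Kif20a, Kif11, Bub1 and Ect2) fewer than 2 PBS or control arrays lay above the filter, so that those 8 had to be high in the Rab5 arrays. Kif20a also had control array 2 above it, and the others passed through the Rab5 arrays alone. Without those 8 genes 40 of 46 rose, 34 of them at least 2-fold, and with no filter 48 of 56 rose (9.37% of all genes did). The ranks and the count of genes without overlap take in the 8. The 6 genes that did not pass the test were Tpx2, Foxm1, Pttg1, Cdc25c, Kif2c and Spc24.

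**Figure D1:**
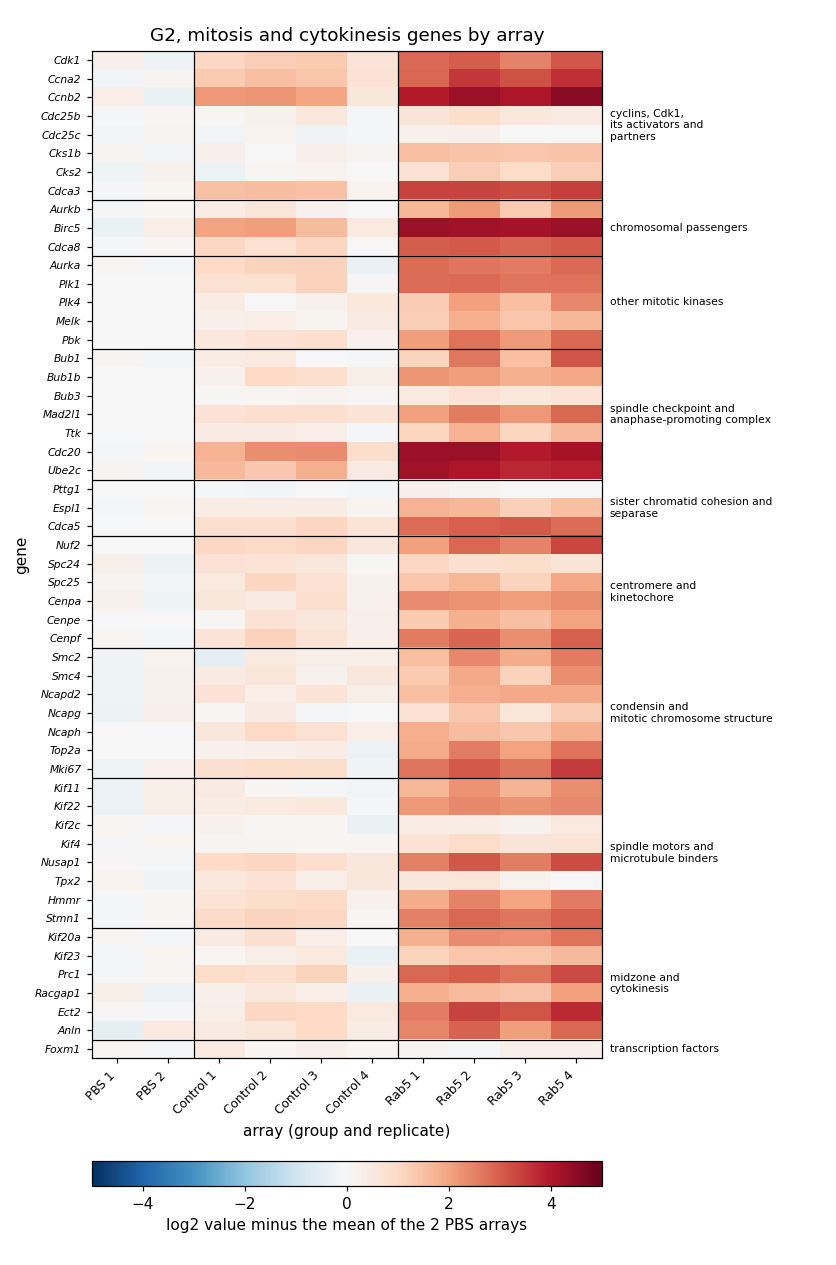
Log2 values of the 54 genes that passed the filter (rows, grouped by role) in each of the 10 arrays (columns), minus the gene's mean over the 2 PBS arrays. The 4 Rab5 arrays are red for most genes, control arrays 1 to 3 are paler, and control array 4 and the PBS arrays are near white.

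In the tissue as a whole the targeted genes were reduced: Rab5a changed by -1.81 (SE 0.176, adjusted p = 1.16e-05) and Rab5c by -1.99 (SE 0.11, adjusted p = 1.64e-07), while the difference for Rab5b was -0.24 (SE 0.127, adjusted p = 0.194). Over all genes 13.8% rose and 9.51% fell with Rab5 siRNA, which stands beside each count of markers. In lists this short a count of 1 or 2 is near those shares. Hepatocyte markers were high in every array. Of 9 genes 0 rose and 2 fell, the lowest difference being -1.37, and their mean was 12.30 to 12.41 with PBS or control siRNA and 12.07 to 12.16 with Rab5 siRNA. Of 20 Kupffer cell and macrophage markers 13 rose with Rab5 siRNA and 0 fell. Their mean was 8.30 and 8.43 with PBS, 8.23, 8.56, 8.49 and 8.52 with control siRNA and 8.61, 9.14, 9.12 and 9.16 with Rab5 siRNA. In this list array 1 of the Rab5 group lay next to the highest control array, and Rab5 arrays 2 to 4 lay further above it. The mean of the 54 mitotic genes was 6.78, 7.09, 6.75 and 7.16 in the Rab5 arrays, against 5.07 to 5.60 in the control arrays. Of 13 stellate cell and fibroblast markers 4 rose, among them Vim (0.96) and Acta2 (0.69), and the list mean was 6.61 to 6.69 with PBS, 6.54 to 6.96 with control siRNA and 6.79 to 7.31 with Rab5 siRNA. Of 5 markers of cholangiocytes and progenitors 2 rose, Afp (3.51) and Sox9 (0.45), with list means of 4.86 to 4.93, 4.98 to 5.08 and 5.63 to 5.96. The median change of these 5 was 0.36 and the lowest -0.38, so Afp weighs heavily in the list mean. Of 4 erythroid precursor markers 3 fell (list means of 8.20 to 8.29, 8.04 to 8.29 and 7.17 to 7.65), and of 9 lymphocyte and plasma cell markers 2 fell (5.09 to 5.26, 5.13 to 5.24 and 4.81 to 4.99). Of 7 monocyte and neutrophil markers 1 rose, and of 11 endothelial markers 1 rose and 3 fell, and the list means of both overlapped between control and Rab5 siRNA. These are whole livers, in which more cells of a type and more RNA per cell cannot be told apart. The part of these cell types in the rise of the mitotic genes was not tested.

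**Figure D2:**
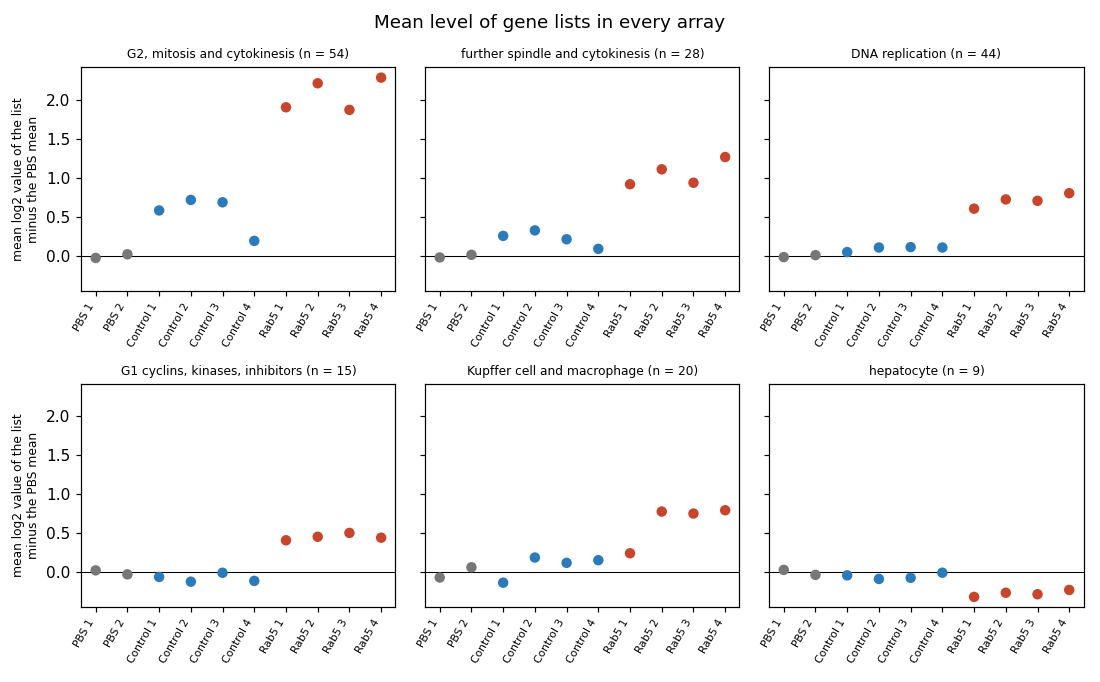
Mean log2 value of 6 gene lists in each array, minus the list's mean over the 2 PBS arrays, on a common axis. The mitotic genes reach about 2 in the Rab5 arrays and stand above the PBS arrays in control arrays 1 to 3. The DNA replication list has its 4 control arrays close together. The macrophage list lies near the control arrays in Rab5 array 1 and above them in Rab5 arrays 2 to 4.

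Cdk1 and its cyclins rose strongly. Of the 8 measured genes of this group 7 rose with Rab5 siRNA, with a median change of 1.54. Cdk1, the kinase that drives entry into mitosis, had values of 5.45 and 4.94 with PBS, 6.24, 6.41, 6.52 and 5.86 with control siRNA and 8.03, 8.23, 7.69 and 8.29 with Rab5 siRNA. The 3 groups formed separate steps, and the change against control siRNA was 1.80 (SE 0.171, adjusted p = 9.96e-06). Ccna2, the cyclin of S phase and G2, read 4.52 and 4.76 with PBS, 5.95, 6.13, 6.03 and 5.37 with control siRNA and 7.49, 8.15, 7.84 and 8.29 with Rab5 siRNA. Its groups did not overlap either, and it rose by 2.08 (SE 0.187, adjusted p = 6.6e-06). Ccnb2, a B-type cyclin that binds Cdk1, read 3.82 and 3.13 with PBS, 5.62, 5.69, 5.44 and 4.06 with control siRNA and 7.44, 7.78, 7.50 and 7.98 with Rab5 siRNA. Here control array 4 lay more than 1 unit under the other control arrays and next to PBS, and every Rab5 array lay above every control array, a change of 2.47 (SE 0.302, adjusted p = 6.54e-05). This was the largest rise of the group. Cdca3, a trigger of mitotic entry, rose by 2.21 (SE 0.238, adjusted p = 2.53e-05), from 6.22 ± 0.653 (SD, n = 4) to 8.43 ± 0.0879 (SD, n = 4). It rests on 1 probe set: the other 2 gave -0.10 and -0.05, and the mean of the probe sets above the filter gave 1.08, still past the threshold.

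The Cdk-binding subunit Cks2 read 8.64 and 9.04 with PBS, 8.56, 8.95, 9.002 and 8.87 with control siRNA and 9.60, 10.07, 9.74 and 10.08 with Rab5 siRNA. The PBS and control values were intermixed and the Rab5 arrays lay above all of them, with a change of 1.03 (SE 0.143, adjusted p = 0.000177). Its relative Cks1b rose by 1.27 (SE 0.0962, adjusted p = 1.94e-06) with a narrow spread, from 8.59 ± 0.115 (SD, n = 4) to 9.86 ± 0.0478 (SD, n = 4). The phosphatases that switch on Cdk1 had the smallest differences of the group with Rab5 siRNA. Cdc25b read 4.31 and 4.50 with PBS, 4.47, 4.62, 4.93 and 4.32 with control siRNA and 5.03, 5.30, 4.92 and 4.85 with Rab5 siRNA. Control array 3 lay above Rab5 arrays 3 and 4, and the rise of 0.44 (SE 0.14, adjusted p = 0.0361) was the smallest of the 48. Of the 19 other settings that kept the gene, 7 left it above the threshold, with an adjusted p of up to 0.206. Cdc25c read 4.12 and 4.37 with PBS, 4.12, 4.42, 4.06 and 4.18 with control siRNA and 4.47, 4.51, 4.27 and 4.24 with Rab5 siRNA. The 3 groups overlapped and the difference was 0.18 (SE 0.112, adjusted p = 0.28). Its second probe set lay under the filter and gave 0.76 (SE 0.141, adjusted p = 0.00225) in the fit over all probe sets.

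The chromosomal passengers, which correct wrong attachments and later mark the plane of division, all rose, though Aurkb had passed the filter through the Rab5 arrays alone. Birc5 (survivin) read 3.24 and 3.91 with PBS, 5.58, 5.65, 5.14 and 4.05 with control siRNA and 7.87, 7.77, 7.74 and 7.91 with Rab5 siRNA. The Rab5 arrays lay close together and far above the control arrays, and the change of 2.72 (SE 0.28, adjusted p = 1.81e-05), 6.58-fold, was the largest of the 54. Aurkb, the kinase of the complex, read 2.80 and 2.99 with PBS, 3.26, 3.50, 3.13 and 2.89 with control siRNA and 4.54, 5.01, 4.20 and 5.01 with Rab5 siRNA. Its PBS and control values were low and overlapped, and it rose by 1.50 (SE 0.179, adjusted p = 5.78e-05), the smallest change of the 3. Cdca8 (borealin) rose by 2.32 (SE 0.191, adjusted p = 3.29e-06), from 5.68 ± 0.505 (SD, n = 4) to 7.99 ± 0.0715 (SD, n = 4).

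All 5 further mitotic kinases rose, with a median of 1.88, which takes in Melk, kept by the filter through the Rab5 arrays alone. Aurka, which matures the centrosome and builds the spindle, read 4.89 and 4.74 with PBS, 5.80, 5.94, 5.98 and 4.47 with control siRNA and 7.61, 7.49, 7.42 and 7.65 with Rab5 siRNA. Control array 4 lay under both PBS arrays while the other control arrays lay above them, and the Rab5 arrays were above all, a change of 1.99 (SE 0.261, adjusted p = 0.000112). Plk1, which acts from mitotic entry to cytokinesis, read 4.46 and 4.40 with PBS, 5.21, 5.20, 5.58 and 4.50 with control siRNA and 7.21, 7.27, 7.13 and 7.16 with Rab5 siRNA. Its 4 Rab5 arrays lay close together, and its rise of 2.07 (SE 0.173, adjusted p = 3.69e-06) was the largest of these kinases. Melk read 3.38 and 3.40 with PBS, 3.64, 3.72, 3.54 and 3.84 with control siRNA and 4.62, 5.21, 4.78 and 5.04 with Rab5 siRNA. The Rab5 arrays stood apart from the others, and the rise of 1.23 (SE 0.126, adjusted p = 1.81e-05) was the smallest. Plk4, the kinase of centriole duplication, rose by 1.52 and the kinase Pbk by 1.88.

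The spindle checkpoint and the machinery it restrains rose too, 7 of 7 genes with a median of 1.67. Among them Bub1 and Ttk had passed the filter through the Rab5 arrays alone, so that they had to be high there. Bub1, a checkpoint kinase at the kinetochore, read 2.32 and 2.08 with PBS, 2.58, 2.69, 2.22 and 2.08 with control siRNA and 3.29, 4.84, 3.71 and 5.34 with Rab5 siRNA. The Rab5 arrays differed among themselves by about 2 units, with arrays 2 and 4 highest, and all lay above the control arrays, a change of 1.90 (SE 0.348, adjusted p = 0.00142). Bub1b (BubR1), which binds and inhibits Cdc20, read 4.21 and 4.26 with PBS, 4.46, 5.22, 5.06 and 4.54 with control siRNA and 6.43, 6.34, 6.00 and 6.17 with Rab5 siRNA. The control arrays lay between the other groups and the rise was 1.42 (SE 0.164, adjusted p = 4.41e-05). Bub3, the partner of both, read 8.73 and 8.78 with PBS, 8.83, 8.86, 8.93 and 8.79 with control siRNA and 9.25, 9.49, 9.29 and 9.44 with Rab5 siRNA. The groups did not overlap, but the rise of 0.51 (SE 0.0915, adjusted p = 0.00118) was the smallest of this role. Of its other 4 probe sets 1 also rose, by 0.46, and 3 did not pass the test.

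Mad2l1 (Mad2), the inhibitor that the checkpoint produces, read 4.99 and 4.93 with PBS, 5.69, 5.80, 5.75 and 5.60 with control siRNA and 7.01, 7.55, 7.11 and 7.84 with Rab5 siRNA. Its 4 control arrays lay together above both PBS arrays, and it rose by 1.67 (SE 0.156, adjusted p = 8.68e-06). Cdc20, the activator of the anaphase-promoting complex that the checkpoint blocks, read 5.59 and 5.79 with PBS, 7.41, 8.02, 8.06 and 6.55 with control siRNA and 10.005, 10.01, 9.64 and 9.86 with Rab5 siRNA. The Rab5 arrays lay close together, the control arrays were spread out between them and PBS, and the rise was 2.37 (SE 0.26, adjusted p = 2.85e-05). Ube2c, the enzyme that hands ubiquitin to that complex and whose promoter is among those shown, read 4.93 and 4.64 with PBS, 6.39, 6.12, 6.61 and 5.24 with control siRNA and 8.996, 8.82, 8.56 and 8.67 with Rab5 siRNA. No groups overlapped, and its rise of 2.67 (SE 0.232, adjusted p = 5.09e-06) was the largest of the role and the second of all. Ttk (Mps1), a checkpoint kinase, rose by 1.12.

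Of the genes of sister chromatid cohesion and its release 2 of 3 rose, among them Espl1, kept by the filter through the Rab5 arrays alone. Cdca5 (sororin), which protects cohesin until mitosis, read 3.95 and 4.00 with PBS, 4.76, 4.78, 5.05 and 4.67 with control siRNA and 6.76, 6.98, 7.04 and 6.78 with Rab5 siRNA. Each group kept to a narrow band and none overlapped, and its rise of 2.08 (SE 0.108, adjusted p = 1.02e-07) had the smallest p of the 54. Espl1 (separase), the protease that cleaves cohesin, rose by 1.22 (SE 0.125, adjusted p = 1.68e-05). Pttg1 (securin), the inhibitor of separase, read 11.24 and 11.20 with PBS, 11.17, 11.07, 11.25 and 11.13 with control siRNA and 11.47, 11.36, 11.18 and 11.25 with Rab5 siRNA. All 10 arrays lay close together, the groups overlapped, and the difference was 0.16 (SE 0.0939, adjusted p = 0.251). None of its 3 probe sets passed the test, with differences of -0.15, 0.13 and 0.16.

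At the centromere and kinetochore 5 of 6 genes rose. Cenpa, the histone variant that marks the centromere, read 6.21 and 5.80 with PBS, 6.55, 6.44, 6.84 and 6.23 with control siRNA and 8.36, 8.27, 8.09 and 8.31 with Rab5 siRNA. The Rab5 arrays lay together about 2 units above PBS, and it rose by 1.74 (SE 0.136, adjusted p = 2.34e-06). Cenpf, a large outer kinetochore protein, read 4.60 and 4.42 with PBS, 5.19, 5.65, 5.21 and 4.75 with control siRNA and 7.11, 7.41, 6.83 and 7.50 with Rab5 siRNA. Its groups were separate, and the rise of 2.02 (SE 0.181, adjusted p = 6.5e-06) was the largest here. Nuf2 and Spc25, of the complex that grips the microtubule, rose by 1.79 and 0.90, and the kinesin Cenpe by 1.25.

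The other subunits of that complex did not pass the test. Spc24 read 6.19 and 5.64 with PBS, 6.63, 6.61, 6.48 and 5.98 with control siRNA and 6.96, 6.75, 6.79 and 6.61 with Rab5 siRNA. The control arrays already lay mostly above PBS and overlapped with the Rab5 arrays, and the difference was 0.35 (SE 0.158, adjusted p = 0.131). With the replicate number as a block Spc24 passed the threshold (adjusted p = 0.0376). Against PBS it rose by 0.86 (SE 0.194, adjusted p = 0.00732). Ndc80, under the filter, read 2.74 and 2.97 with PBS, 3.58, 3.11, 3.18 and 3.50 with control siRNA and 3.62, 3.50, 3.36 and 3.90 with Rab5 siRNA. Control and Rab5 arrays overlapped and both lay above PBS, with a difference of 0.26 (SE 0.138, adjusted p = 0.253) against control siRNA in the fit with no filter. Against PBS the difference of 0.75 (SE 0.169, adjusted p = 0.00932) passed the threshold there.

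All 7 genes of condensin and chromosome structure rose, with a median of 1.28. Mki67, which encodes the proliferation antigen Ki-67, a coat of mitotic chromosomes, read 4.45 and 4.91 with PBS, 5.48, 5.58, 5.58 and 4.52 with control siRNA and 7.34, 7.76, 7.36 and 8.18 with Rab5 siRNA. Control array 4 lay with PBS, the other control arrays above it, and the Rab5 arrays higher still, a rise of 2.37 (SE 0.243, adjusted p = 1.79e-05) that was the largest of the role. Top2a, the topoisomerase that untangles sister chromatids, read 4.75 and 4.73 with PBS, 4.94, 4.99, 5.10 and 4.45 with control siRNA and 6.604, 7.30, 6.75 and 7.44 with Rab5 siRNA. PBS and control arrays overlapped, and the Rab5 arrays stood about 2 units above both, a change of 2.15 (SE 0.187, adjusted p = 5.02e-06). It too rests on 1 probe set, since the other 2 gave 0.05 and 0.02, and the mean of those above the filter gave 1.09, still past the threshold. Smc2, the core ATPase of condensin, read 4.93 and 5.30 with PBS, 4.68, 5.62, 5.39 and 5.41 with control siRNA and 6.64, 7.51, 6.99 and 7.70 with Rab5 siRNA. PBS and control values were intermixed, and the rise was 1.93 (SE 0.235, adjusted p = 6.35e-05). Ncapg, a regulatory subunit, read 3.98 and 4.51 with PBS, 4.30, 4.64, 4.20 and 4.28 with control siRNA and 4.99, 5.61, 4.83 and 5.53 with Rab5 siRNA. Only the Rab5 arrays stood apart, by little, and its rise of 0.89 (SE 0.183, adjusted p = 0.00335) was the smallest of the role. Smc4, Ncapd2 and Ncaph, the remaining subunits of condensin I, rose by 1.21, 1.28 and 0.95.

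Of 8 spindle motors and microtubule binders 6 rose, among them Kif11, kept by the filter through the Rab5 arrays alone. Kif11 (Eg5), the motor that pushes the poles apart, read 3.00 and 3.58 with PBS, 3.73, 3.39, 3.23 and 3.14 with control siRNA and 4.96, 5.54, 4.98 and 5.60 with Rab5 siRNA. PBS and control arrays overlapped, and it rose by 1.90 (SE 0.185, adjusted p = 1.19e-05). Its other probe sets gave 0.92 and 0.42, and the mean of the 3 gave 1.08, still past the threshold. Stmn1 (stathmin), which destabilises microtubules, read 7.99 and 8.11 with PBS, 8.99, 9.18, 9.09 and 8.11 with control siRNA and 10.58, 10.92, 10.71 and 11.03 with Rab5 siRNA. Control arrays 1 to 3 lay about 1 unit above PBS and array 4 level with PBS, and the rise with Rab5 siRNA was 1.97 (SE 0.198, adjusted p = 1.52e-05). Nusap1, which bundles spindle microtubules, read 3.91 and 3.82 with PBS, 4.87, 4.94, 4.72 and 4.44 with control siRNA and 6.39, 6.98, 6.41 and 7.15 with Rab5 siRNA. The groups formed separate steps, and the rise of 1.99 (SE 0.171, adjusted p = 4.96e-06) was the largest of the role. It rests on 1 probe set, since the other, under the filter, gave -0.08. The chromokinesins Kif22 and Kif4 rose by 1.97 and 0.62, and Hmmr, a spindle pole protein, by 1.56.

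Kif2c (MCAK), a kinesin that takes microtubules apart, read 5.02 and 4.83 with PBS, 5.12, 4.99, 5.03 and 4.61 with control siRNA and 5.28, 5.31, 5.12 and 5.43 with Rab5 siRNA. Control array 1 overlapped with the Rab5 arrays, and the difference was 0.35 (SE 0.122, adjusted p = 0.0574). Its 4 probe sets differed: 1 gave 2.58 (SE 0.147, adjusted p = 7.54e-08) in the fit over all probe sets, and the others gave -0.19, 0.35 and -0.12. Tpx2, which activates Aurora A on the spindle, read 4.56 and 4.18 with PBS, 4.90, 5.08, 4.70 and 4.94 with control siRNA and 4.92, 4.99, 4.53 and 4.38 with Rab5 siRNA. The control arrays lay above both PBS arrays, the Rab5 arrays overlapped with each group, and the difference of -0.20 (SE 0.148, adjusted p = 0.362) was the lowest of the 54. Here too the probe sets split. The brightest of the 4 stands for the gene, while the others gave 1.49 (SE 0.161, adjusted p = 2.17e-05), 0.74 (SE 0.131, adjusted p = 0.00142) and 0.13 (SE 0.12, adjusted p = 0.575) in the fit over all probe sets. For both genes, then, the call depends on the probe set.

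The midzone and cytokinesis genes all rose, 6 of 6 with a median of 1.93. Among them Ect2 had passed the filter through the Rab5 arrays alone, and Kif20a through these and control array 2. Prc1, which crosslinks the microtubules of the midzone, read 4.84 and 4.93 with PBS, 5.79, 5.74, 6.01 and 5.14 with control siRNA and 7.74, 7.90, 7.61 and 8.18 with Rab5 siRNA. The groups formed separate steps and the rise was 2.19 (SE 0.171, adjusted p = 2.34e-06). Kif20a, the motor that brings the passengers to the midzone, read 3.66 and 3.57 with PBS, 4.08, 4.42, 3.94 and 3.63 with control siRNA and 5.41, 5.99, 5.89 and 6.33 with Rab5 siRNA. Control array 4 lay between the PBS arrays, and all Rab5 arrays stood above the rest, a rise of 1.88 (SE 0.188, adjusted p = 1.43e-05). Ect2, the exchange factor that activates RhoA at the cleavage plane, read 2.88 and 2.73 with PBS, 3.09, 3.84, 3.82 and 3.30 with control siRNA and 5.38, 6.19, 5.96 and 6.54 with Rab5 siRNA. The Rab5 arrays spread over more than 1 unit, with array 4 highest, and the rise of 2.50 (SE 0.224, adjusted p = 6.38e-06) was the largest of the role.

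Anln (anillin), a scaffold of the contractile ring, read 3.25 and 4.22 with PBS, 4.19, 4.34, 4.72 and 4.11 with control siRNA and 6.16, 6.70, 5.83 and 6.596 with Rab5 siRNA. The PBS arrays differed from each other by about 1 unit and enclosed control arrays 1 and 4, and the rise with Rab5 siRNA was 1.98 (SE 0.226, adjusted p = 3.88e-05). Kif23 and Racgap1 together form centralspindlin. Kif23 read 5.05 and 5.22 with PBS, 5.22, 5.48, 5.60 and 4.80 with control siRNA and 6.23, 6.52, 6.50 and 6.74 with Rab5 siRNA. Control array 4 was lowest of all arrays, and the rise of 1.22 (SE 0.161, adjusted p = 0.000122) was the smallest of the role. It rests on 1 probe set, since the other 2 gave 0.03 and 0.11. Racgap1 rose by 1.52.

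Of the transcription factors in the list, Foxm1 was tested and Mybl2 lay under the filter. Foxm1, an activator of G2 and mitotic genes, read 5.34 and 5.17 with PBS, 5.76, 5.37, 5.52 and 5.34 with control siRNA and 5.41, 5.21, 5.52 and 5.51 with Rab5 siRNA. The 10 arrays overlapped across groups, and the difference was -0.09 (SE 0.116, adjusted p = 0.632). Of its 4 probe sets 1 passed the test, with 0.50 (SE 0.138, adjusted p = 0.0304). Mybl2 (B-Myb), which works with the MuvB complex on the same promoters, read 3.38 and 3.65 with PBS, 3.63, 3.62, 3.53 and 3.71 with control siRNA and 3.85, 3.87, 3.56 and 3.50 with Rab5 siRNA. All groups overlapped in this range under the filter, and the difference was 0.07 (SE 0.112, adjusted p = 0.734) in the fit with no filter. RNA levels of these factors say nothing here of their activity.

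**Figure D3:**
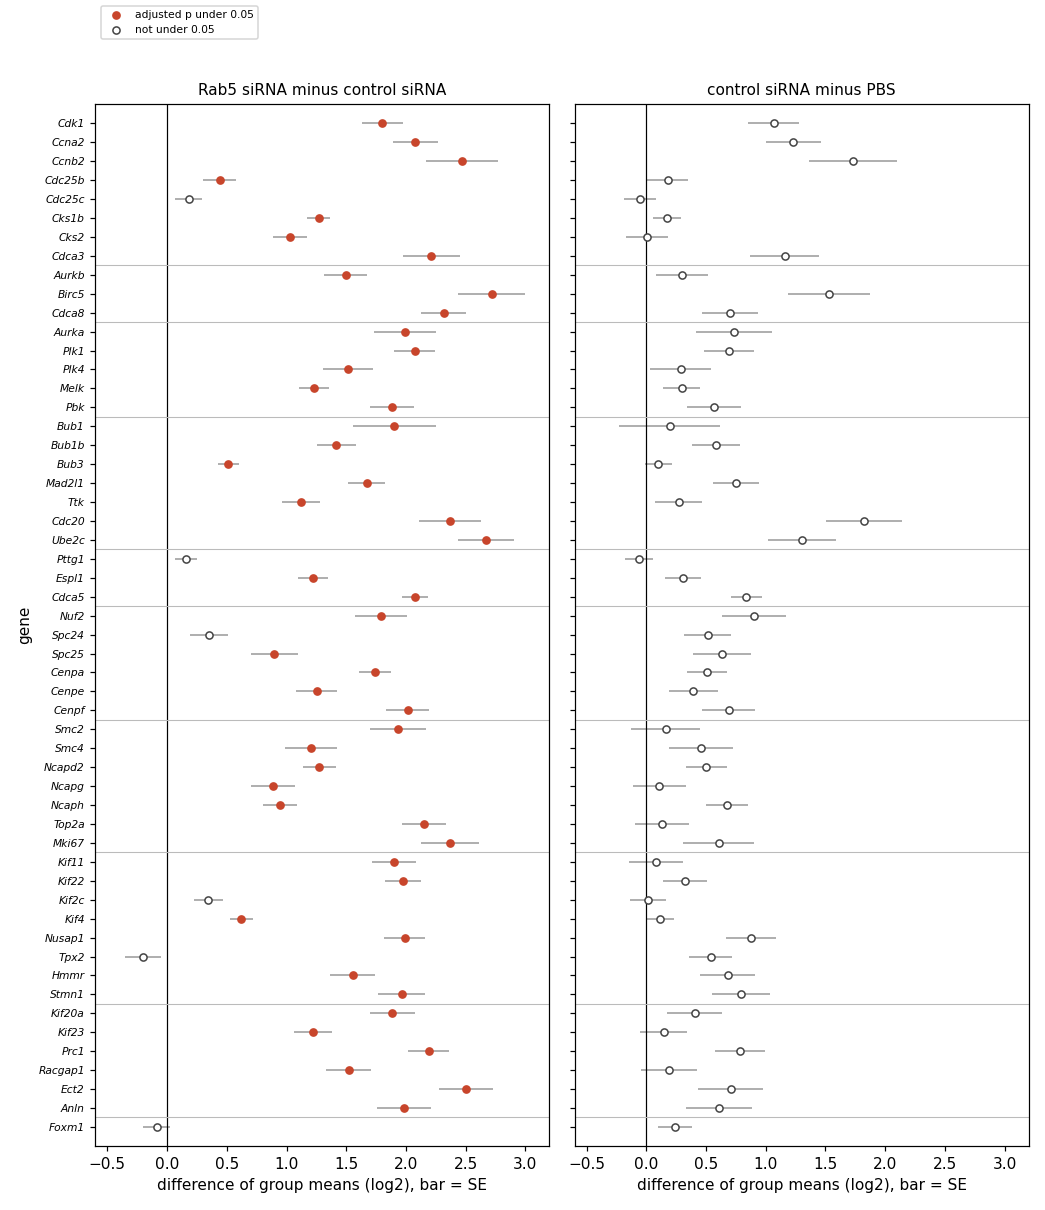
Differences of group means (log2, points) with their standard errors (bars) for each of the 54 genes, for Rab5 siRNA minus control siRNA (left) and control siRNA minus PBS (right). Filled points have an adjusted p under 0.05: 48 on the left and 0 on the right, where most points still lie to the right of 0.

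Across the 124 probe sets of the 56 genes on the array, 81 were higher with Rab5 siRNA and 0 lower in the fit over all 45037 probe sets, of which 6.21% were higher. Of 39 genes with several probe sets, 14 had every one higher, 2 had none and 23 were split. Among the split genes, Nusap1, Aurka, Bub1, Anln, Spc25 and Ncapd2 each had 2 probe sets. The second of each lay under the filter and did not pass the test. These second probe sets gave -0.08, -0.17, -0.01, 0.20, -0.03 and 0.04. At least 1 probe set was higher for 51 of the 56 genes. Among probe sets under the filter, 9 of 37 were higher, and among those above it 72 of 87.

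The next comparison asks what the nanoparticles with control siRNA did, against PBS alone. No gene of the 54, and none of the 12855, passed limma's adjusted threshold (0% of all genes in either direction), and with array weights 1 of the 54 did. At an unadjusted p under 0.05, however, 28 of the 54 mitotic genes were higher and 0 lower, against 2.37% and 1.94% of all genes. The median difference was 0.51, against -0.01 over all genes, and 52 of the 54 differences were above 0. All 4 control arrays lay above both PBS arrays for 28 of the 54 (6.57% of all genes), and at least 3 of the 4 did for 44 (19.5%). The smallest p values belonged to Cdca5, with a difference of 0.84 (SE 0.132, adjusted p = 0.0899), to Cdc20, with 1.83 (SE 0.318, adjusted p = 0.149), and to Ccna2, with 1.23 (SE 0.23, adjusted p = 0.231). Other large differences were those of Ccnb2 (1.73), Birc5 (1.53), Ube2c (1.31), Cdca3 (1.16) and Cdk1 (1.07).

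Array by array, the control group was uneven. The median of the 54 genes, each set to its PBS mean, was 0.48, 0.71 and 0.63 in control arrays 1 to 3 and 0.19 in array 4. Above both PBS arrays lay 46, 48 and 48 of the 54 genes in the first 3 and 32 in array 4, where between 31.3% and 34.9% of all genes did so in the 4 arrays. At least 1 unit above the PBS mean lay 10, 13, 15 and 0 of the 54, against 0.241%, 0.296%, 0.327% and 0.0933% of all genes. Array 4 held the lowest control value for 41 of the 54 genes, against 23.6% of all genes. The SD among control arrays, as a median over the 54, was 0.275 with all arrays and 0.172 without array 4, and 0.152 and 0.143 over all genes.

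Cdc20 shows this: control arrays 1 to 3 read 7.41, 8.02 and 8.06 and array 4 read 6.55, over PBS values of 5.59 and 5.79. Without control array 4, 13 of the 54 genes were higher than with PBS, of 16 genes in all (0.124% of those tested), and 2 genes were lower. The 13 were Cdc20, Ccnb2, Birc5, Ube2c, Cdca3, Ccna2, Cdk1, Aurka, Stmn1, Prc1, Cdca8, Plk1 and Cdca5, with changes from 0.89 (Cdca5) to 2.15 (SE 0.192, adjusted p = 0.000553) for Cdc20. The other 3 that rose were Ppp1r3g, Gstm3 and Cib3. The 2 that fell were Rfx4 and Cdkn1a, an inhibitor of cyclin-dependent kinases, at -0.90 (SE 0.146, adjusted p = 0.0373). Leaving out any other array gave 0 of the 54. Since array 4 was looked at because its values were low, the 13 describe the other arrays and are no independent result. Scan dates and batches were not given in the sources used.

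Some lists of further mitotic genes, described below, also had their lowest control mean in array 4. For spindle and cytokinesis genes it was 4.91, against 5.04 to 5.15 in the other control arrays. For kinetochore, checkpoint and centromere genes it was 5.01, against 5.03 to 5.12. For entry into and exit from mitosis it was 6.43, against 6.50 to 6.57. In the remaining lists of further mitotic genes array 4 was not the lowest, and not every other list followed this pattern. The DNA replication genes had means of 5.89, 5.95, 5.95 and 5.95 in control arrays 1 to 4, against 5.82 and 5.85 with PBS, so that array 4 was not the lowest there. The macrophage list had its lowest control mean in array 1 (8.23), not in array 4 (8.52), and the hepatocyte list read 12.38 in array 4. Among the roles, the chromosomal passengers had a median over their genes of 1.02, 0.76 and 1.06 above PBS in control arrays 1 to 3 and -0.01 in array 4. Midzone and cytokinesis genes read 0.37, 0.71, 0.73 and 0.13.

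**Figure D4:**
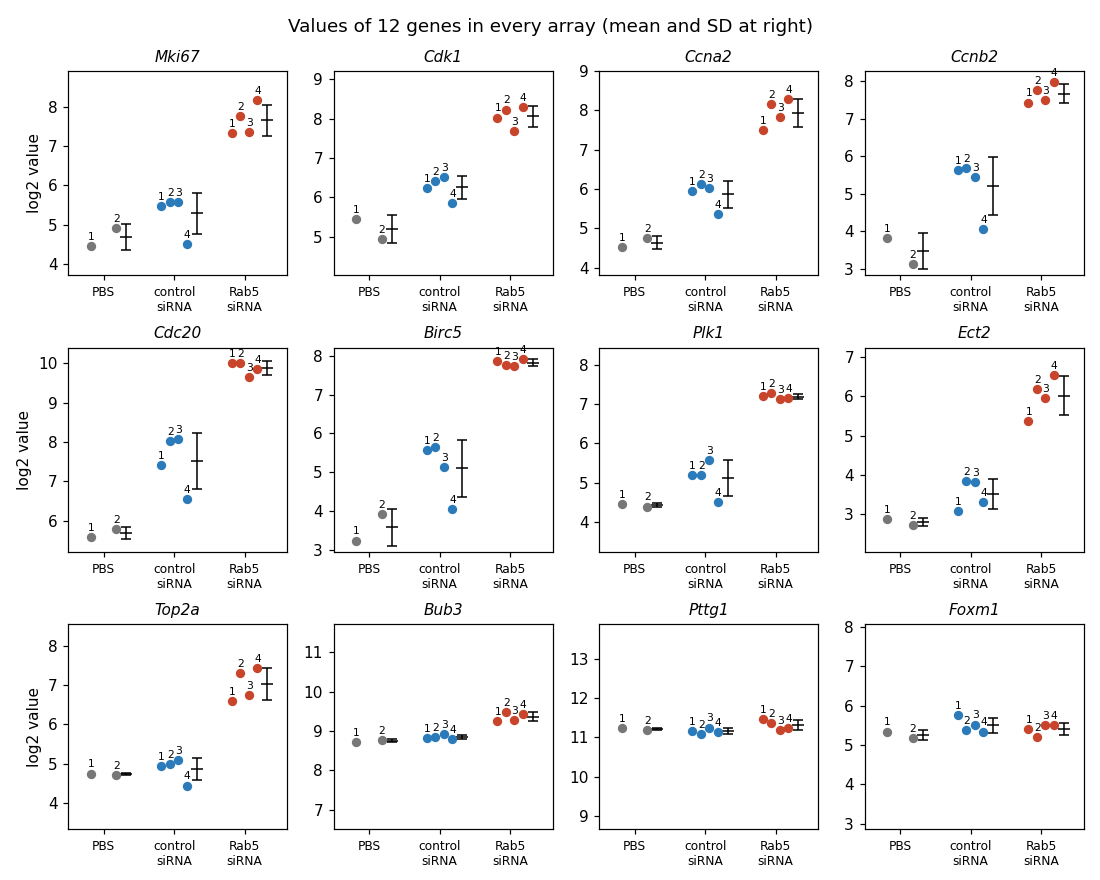
Log2 values of 12 of the genes in every array (points numbered by replicate; grey PBS, blue control siRNA, red Rab5 siRNA), with each group's mean and SD at its right, on axes of equal span. Control array 4 is the lowest blue point in most panels, and Pttg1 and Foxm1 show no separate red group.

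Against PBS, 49 of the 54 genes rose with Rab5 siRNA and 0 fell (9.53% of all genes rose and 7.59% fell), and 50 of the 54 had every Rab5 array above both PBS arrays (19.8%). With no filter 50 of 56 rose (6.46%). The median change was 2.10. The largest were those of Birc5 (4.25), Ccnb2 (4.20), Cdc20 (4.19) and Ube2c (3.98). Spc24 rose here and not against control siRNA. The 5 that did not pass were Tpx2 (0.34), Foxm1 (0.15), Pttg1 (0.10), Cdc25c (0.13) and Kif2c (0.36). This comparison shares its arrays with both others, so the counts are not independent.

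The Rab5 arrays also differed among themselves. Their medians over the 54 genes were 1.80, 2.32, 1.88 and 2.40 above the PBS mean. Array 4 held the highest Rab5 value for 29 genes and array 2 for 14, while the lowest lay in array 1 for 24 and in array 3 for 25. Over all genes the 4 arrays held the highest value in 30.8%, 15.3%, 24.9% and 29.0% and the lowest in 33.3%, 17.8%, 16.4% and 32.5%. The SD among the Rab5 arrays was largest for Bub1 (0.953) and Nuf2 (0.560) and smallest for Cks1b (0.0478) and Plk1 (0.0639), with a median of 0.249 over the 54 genes and 0.161 over all. Gapdh, whose probe sets at the 3' and 5' ends report RNA quality, had its largest 3' minus 5' difference in the arrays numbered 2 (2.58, 2.86 and 2.67, against 2.15 to 2.38 elsewhere). The same difference for beta-actin was 2.83 and 3.13 with PBS, 2.84, 3.23, 2.89 and 2.86 with control siRNA and 2.59, 2.75, 2.68 and 2.68 with Rab5 siRNA. For actin, then, every Rab5 array lay below every other array, so that this measure separates the groups as most of the mitotic genes do, while that of Gapdh does not. The part of RNA quality in the rise of the mitotic genes was not tested.

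**Figure D5:**
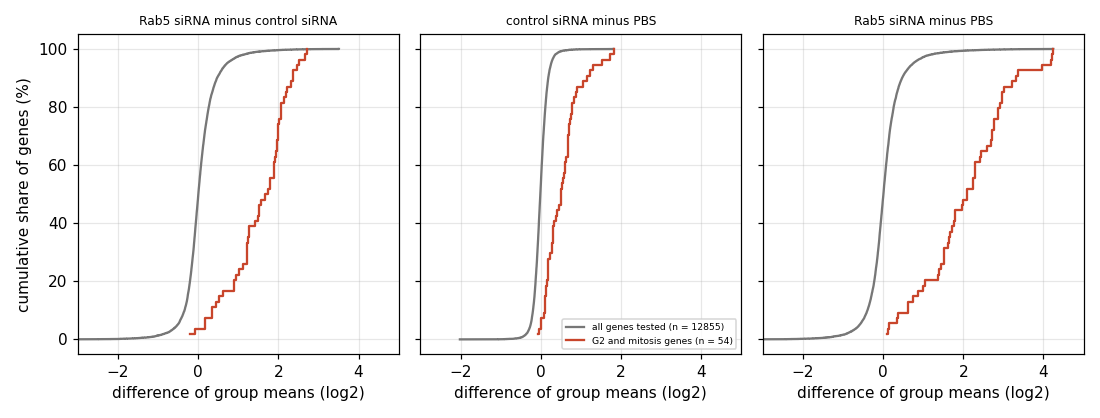
Cumulative share of genes (%) by difference of group means (log2) for all 12855 genes tested (grey) and the 54 mitotic genes (red), in the 3 comparisons; axes end at -3 and 5. The red curve lies to the right of the grey one in each panel, with medians of 1.71, 0.51 and 2.10.

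Further mitotic genes outside the 57 were read from 6 lists with 139 names, of which 137 were on the array and 118 were tested. A gene could pass the filter through the Rab5 arrays alone, and then had to be high there. Such genes were not counted apart in these lists. With Rab5 siRNA 58 of the 118 rose and 2 fell, in control siRNA against PBS 0 passed the test, and against PBS 54 rose and 1 fell. Beside these and the counts of each list stand the shares over all genes, 13.8% higher and 9.51% lower with Rab5 siRNA against control siRNA, and 9.53% and 7.59% against PBS. Of 28 further spindle and cytokinesis genes 20 rose, led by Cep55 (2.40), which acts in the final severing of the midbody, the scaffold Iqgap3 (2.21) and the centrosomal Tacc3 (1.76). Of 26 kinetochore, checkpoint and centromere genes 17 rose, led by Trip13 (1.77), which disassembles the checkpoint complex, the passenger scaffold Incenp (1.68) and the cohesin protector Sgo2a (1.49).

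Other lists hold genes that also act outside mitosis. Of 17 genes of the anaphase-promoting complex and its inhibitors 7 rose, led by the inhibitor Fbxo5 (1.08), the subunit Anapc4 (0.86) and the ubiquitin-conjugating Ube2s (0.75). Of 15 cohesin and condensin genes 4 rose, among them the cohesin acetyltransferase Esco2 (1.72), the condensin II subunit Ncapg2 (1.54) and the cohesin subunit Rad21 (0.56). The median change of these 15 was 0.15, and the count is too close to the share over all genes to be read as a result about the list. Of 15 genes of entry into and exit from mitosis 6 rose and 1 fell: the phosphatase Cdkn3 rose by 2.17, the checkpoint kinase Chek1 by 1.24 and the Cdk1 inhibitor Wee1 by 0.71, while the phosphatase Cdc14b changed by -0.37. The list of the DREAM and MuvB complexes, which repress and activate these promoters, also named E2F factors outside them and the kinase Dyrk1a. Of its 17 tested genes 4 rose and 1 fell, counts too close to the shares over all genes to be read as a result about the list. Of its members, Mybl1 (A-Myb) rose by 2.32 (SE 0.421, adjusted p = 0.00132), the pocket protein Rbl1 (p107) by 2.06 (SE 0.252, adjusted p = 6.61e-05) and Lin9 by 0.48, and Rbl2 (p130), the pocket protein of resting cells, changed by -0.98 (SE 0.16, adjusted p = 0.000609). The difference in shares between these lists was not tested.

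Genes of earlier phases of the cell cycle were read beside them, with the same limit from the filter. Over all genes 13.8% were higher with Rab5 siRNA than with control siRNA and 9.51% lower. Of 44 DNA replication genes 31 rose and 1 fell, with a median of 0.58; Uhrf1 (2.55), Mcm5 (2.35) and Mcm6 (1.81) rose most, and the probe set of Mcm10 fell (-2.63). Of 15 G1 cyclins, kinases and inhibitors 5 rose, with a median of 0.30, among them the inhibitors Cdkn1a (p21, 2.63) and Cdkn2c (0.70) and cyclin D1 (Ccnd1, 1.55). The count in this short list was not tested against the share over all genes.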

How the data were processed

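Liver RNA of 10 samples (2 PBS, 4 control siRNA, 4 Rab5 siRNA) was measured on 1-colour arrays. The authors deposited a table of 45101 probe sets in log2 units. Affymetrix Expression Console, RMA and Partek 6.6 stand in the submitters' processing notes, in no given order. RMA equalises the distributions of the arrays, so a shift shared by all transcripts would not be seen. A genome build is not given in the sources used here. The median of the values per array lay between 4.29 and 4.37. Low values could not be set against a measured background, and precision is limited by the number of arrays.

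Exactly 1 symbol was given to 34945 probe sets, several to 932 and none to 9160, and 64 control probe sets were left out. A probe set was kept if above the median of the table (4.33) in at least 2 arrays, and the brightest kept one stood for its gene. The linear model had a term for each group and took in the 10 arrays (lmFit and eBayes of limma 3.58.1 in R 4.3.3), with Benjamini-Hochberg adjustment over 12855 genes. Standard errors are the moderated ones. The fit was tested on simulated data. Groups were taken from the sample titles, and all 3 comparisons between groups were made.

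The 57 members, their roles and the other lists were chosen with earlier results of these data known. Every member may be named; values in every array follow a written list, the extremes of each role and every member that did not pass, and other lists give the 3 largest called changes each way. Promoter motifs were counted in Python 3.11.15 with pandas 2.3.3 as a description. A planned search for degrons was not done, since no protein sequences were used here.

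Control and Rab5 siRNA samples share replicate numbers. Deviations from the group means of same-numbered samples correlated across genes at 0.391, 0.149, 0.186 and 0.312. The labels state no pairing, and these values do not establish one. The main fit had no term for the replicate number, so its standard errors and p-values treat the samples as unpaired. A replicate block was used as an alternative only. The pairs numbered 1, 3 and 4 correlated best with their own number, while control array 2 and Rab5 array 2 correlated more with the arrays numbered 4 of the other group (0.183 and 0.199). With the replicate block 49 of the 54 members rose instead of 48. Alternatives changed the filter, the choice of probe set, the normalization, the moderation, array weights, the groups fitted and the arrays left out.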

Additional observations from a re-analysis of the deposited data

Results flagged for a closer look

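Within the groups of 4 arrays, 110 sets of values were examined for a sample far from the rest (a gap to its nearest neighbour, as a share of the group's range, above Dixon's critical value), and 6 were found, all of them the lowest value in control siRNA array 4. Chance alone marks about 1 in 20 such groups. Ccnb2 read 4.055 there, against 5.442 to 5.691 in the other control arrays. Cdca3 read 5.245, against 6.512 to 6.618. Aurka read 4.469, against 5.804 to 5.982. Mki67 read 4.516, against 5.477 to 5.584. Ttk read 3.411, against 3.816 to 3.879, and Espl1 read 3.470, against 3.699 to 3.725, both below the filter's level in the control arrays. The genes share the array, so these are not 6 independent observations.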

How the results depend on the processing

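Under 20 alternatives, 47 of the 48 members that rose with Rab5 siRNA against control siRNA kept their direction and their side of the threshold wherever they were kept by the filter. Cdc25b was the exception. Of the 6 that did not pass, Pttg1 and Cdc25c stayed so under each alternative. The count ran from 37 (of 39 members, stricter filter) to 51, and from 47 to 48 with 1 array left out. The median change was 1.33 with the mean of a gene's probe sets in place of the brightest, against 1.71. Tpx2 turned to 0.47 (adjusted p = 0.0122) with the mean of probe sets and to 1.49 (adjusted p = 3.37e-05) with the most variable one, and Foxm1 to 0.50 (adjusted p = 0.0228) with the latter; the choice of probe set alone differs there. Kif2c passed in 5 alternatives, with changes up to 2.58. For control siRNA against PBS, 1 member passed with array weights, and leaving out 1 array gave 0 to 13, the 13 without control siRNA replicate 4; the cause was not tested. With the replicate block the counts were 49 (Spc24 added), 0 and, against PBS, 49, and no other member's call against control siRNA was changed by it. Over all genes, 911 rose without the arrays numbered 2, against 1771. Low values have no measured background, so small changes of dim probe sets cannot be told from none.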
